A study of Mus musculus with 16 samples.

Results

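Kidney macrophages expressing C1q were studied in single-cell RNA libraries from the kidneys of 16 mice, 1 library per mouse. A barcode was counted as such a macrophage when it held 200 to 7000 detected genes and at most 20% mitochondrial transcript counts (unique molecular identifiers, UMIs), at least 3 UMIs summed over C1qa, C1qb and C1qc with at least 2 of these genes detected, at least 1 UMI of the leukocyte genes Ptprc, Tyrobp or Fcer1g, and no UMI of Cubn, Epcam, Pecam1 or Pdgfrb, which mark tubule, endothelial and mesangial lineages. The rule found 153 macrophages among 116439 barcodes, of which 53253 met the gene and mitochondrial limits and are called kept barcodes here. The mice were BTBR ob/ob animals, which lack functional leptin and become obese and diabetic (DN), and BTBR +/+ controls, in groups of 2 females and 2 males per genotype at 6 and at 12 weeks of age. By the study's methods, all mice of both genotypes also carried a two-colour membrane reporter and a Cre transgene driven by a podocyte promoter, and neither the rule nor the tests use these. The kidney suspensions had been enriched for glomeruli and freed of papilla, so the cells come from a glomerulus-rich preparation and not from whole kidney. The ob allele is a point mutation that a transcript count does not reveal, so expression does not check the genotype labels.

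C1q is the recognition molecule of the classical complement pathway. Each C1q molecule is built from 3 related chains, A, B and C, and binds antibody complexes, dying cells and other targets, which either starts the complement cascade or marks the target for uptake. Unlike most complement proteins, which the liver secretes, C1q is made mainly by tissue macrophages. In the mouse kidney, resident macrophages are long-lived phagocytes that surround tubules and vessels, carry MHC class II and take up debris, while monocytes enter from the blood and express Ly6c2 and Ccr2.

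The genes of the 3 chains lie side by side on the minus strand of chromosome 4 (GRCm38, GENCODE M21), with C1qb at chr4:136880129-136886187, C1qc at chr4:136889804-136893065 and C1qa at chr4:136895917-136898803. The cluster spans 18675 bases, with gaps of 3616 bases between C1qb and C1qc and 2851 bases between C1qc and C1qa. The stretches before the starts of C1qb and C1qc are shown, taken from the RefSeq promoter table (GRCm38.p6, minus strand, reference strain and not BTBR), which held C1qb and C1qc and not C1qa. For C1qb these are the 250 bases at chr4:136886201-136886450, and for C1qc the 99 bases at chr4:136893066-136893164, which lie before the longest annotated transcript. Capitals mark ACTTCCT, the reverse complement of AGGAAGT, a word that holds the core bound by ETS family factors such as PU.1 (gene Spi1).
C1qb: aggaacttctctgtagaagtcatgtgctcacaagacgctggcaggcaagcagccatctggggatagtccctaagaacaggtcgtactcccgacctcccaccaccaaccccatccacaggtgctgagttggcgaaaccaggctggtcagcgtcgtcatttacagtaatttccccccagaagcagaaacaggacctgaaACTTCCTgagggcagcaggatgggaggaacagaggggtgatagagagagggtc
C1qc: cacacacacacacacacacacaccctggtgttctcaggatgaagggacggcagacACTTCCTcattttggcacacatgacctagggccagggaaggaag
The word occurred once in each stretch, 47 bases before the RefSeq start in C1qb and 189 bases before it in C1qc. It was searched on both strands, was chosen after the sequences were read, and occurred in 2525 of 32851 promoters of 250 bases (7.69%). A match of these letters is not a measured binding site.

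The 16 libraries fell into 2 technical sets by the cell barcodes they shared. Any 2 of the 12 deep libraries shared 7 to 32 barcodes, any 2 of the 4 shallow ones (replicate 1 of each female group) shared 23 to 55, and libraries of different sets shared 0 to 3. The deep libraries held 83410397 to 125551519 UMIs and the shallow ones 10510855 to 21728793. The shallow libraries gave 42 of the macrophages, with medians of 1802 to 3090 UMIs per macrophage, and the deep ones 111, with medians of 3248 to 8305. All male libraries were deep, and each set held both genotypes.

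C1q transcripts were abundant in these cells. The macrophages held a median of 56 C1q UMIs (range 3 to 412), which was a median of 1.42% of their transcripts, in a median of 4282 UMIs and 1682 genes per cell. Of 281 kept barcodes with any C1q UMI, 190 met the C1q limit, all 190 had a leukocyte UMI, and 37 of them were left out for a UMI of another lineage. These 37 held about as many C1q UMIs per barcode as the accepted cells, with a median of 52 (range 3 to 271). They were deeper, with a median of 6705 UMIs of all genes against 4282 in the accepted cells. Together they held 1226 C1qa, 1035 C1qb and 661 C1qc UMIs, and they belong to no class compared here. The 53063 kept barcodes that missed the C1q limit, called all other barcodes from here on, held 38, 36 and 24 UMIs of these genes. The 91 barcodes that missed the limit held a median of 1 C1q UMI and at most 3, and the least of the accepted cells held 3, 5 and 6. The cells were selected on these values, which are descriptive. The plot of C1q UMIs per barcode shows all 3 kinds.

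**Figure D1:**
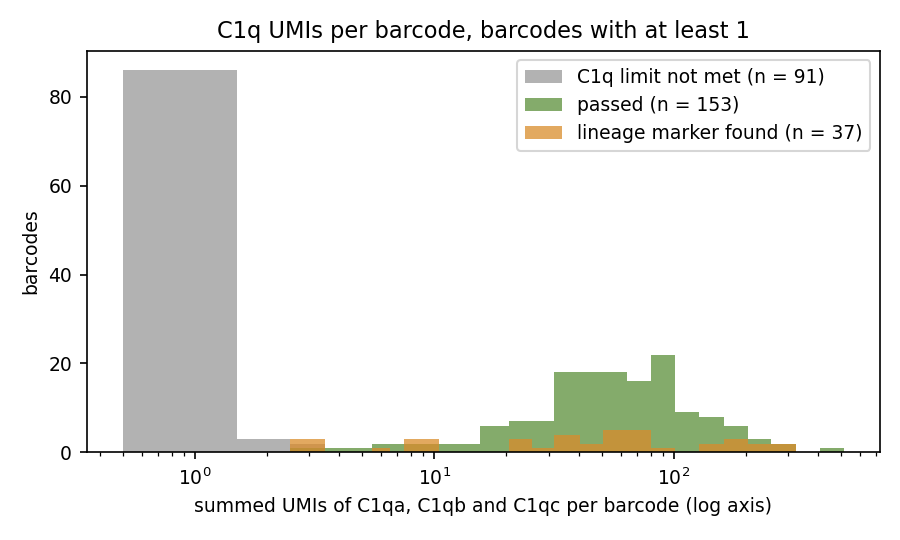
Summed UMIs of C1qa, C1qb and C1qc per barcode (log axis) for the 153 accepted macrophages, the 91 kept barcodes that had a C1q UMI and missed the C1q limit, and the 37 that met it and were left out for a lineage marker, with the number of barcodes on the y axis. Most barcodes below the limit hold 1 UMI, while the macrophages have a median of 56 and the 37 left out overlap them with a median of 52.

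Summed over the macrophages, C1qa had the most UMIs of the 3 genes and C1qc the fewest. All 3 genes were detected in 149 of the 153 cells, under a rule that asked for at least 2 of them. The 153 cells together held 4671 C1qa, 3738 C1qb and 2656 C1qc UMIs. Over the 8 libraries with at least 10 macrophages, C1qb stood at 0.637 to 1.01 UMIs per C1qa UMI (median 0.804) and C1qc at 0.5 to 0.824 (median 0.613). These are ratios of 3 prime tag counts, not of transcription or of protein chains. Summed C1q transcripts made up 1.03% to 1.84% of the macrophage UMIs of these libraries. C1qa stood at 6614 ± 871 CPM (the counts-per-million scale, here of macrophage UMIs) in the 3 control libraries and at 5501 ± 1671 in the 5 DN libraries (SD), with overlapping ranges and no test, because the rule uses the gene.

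The label of macrophages held against most markers the rule did not use, but not against all. Csf1r, the receptor for the macrophage growth factor CSF1, was detected in 94.1% of the macrophages, against 37.8% of 498 immune barcodes without C1q and 2.4% of all other barcodes. Adgre1, which encodes F4/80, was detected in 64.0%, 9.6% and 0.2% of them, and Cx3cr1, the fractalkine receptor, in 70.6%, 40.6% and 0.8%. Cd68, a lysosomal glycoprotein of macrophages, was found in 82.4% and Spi1 in 81.0%, values given for the macrophages alone. Other genes of the macrophage identity list were less frequent, with Fcgr1 in 56 of the 153 cells, Cd83 in 58 and Mertk in 12. Immune barcodes without C1q had no C1q UMI, at least 1 Ptprc UMI, at least 3 UMIs over Ptprc, Laptm5, Coro1a, Cd52, Tyrobp and Fcer1g, and the same lineage limit. Medians of these barcodes ran from 1710.5 to 6336.5 UMIs by library, so shares were also taken with each barcode thinned to 1000 UMIs. Thinned, Csf1r stood at 62.2% in macrophages and 14.1% in the other immune barcodes.

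Antigen presentation genes led the transcriptome. Cd74, the invariant chain of MHC class II, was the most abundant transcript, with 33681 UMIs over all macrophages, and Cd74, H2-Aa, H2-Ab1 and H2-Eb1 were detected in 100% of the cells, against 49%, 36.4%, 34.7% and 32.9% of the other immune barcodes. Ciita, the switch factor of the class II genes, was detected in 52.9%. The lysosomal proteases Ctss, Ctsb and Ctsz were detected in 98.7%, 97.4% and 93.5%.

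Genes of uptake and of tissue residence ranged from most cells to none. Of the 13 genes of the resident macrophage list, Selenop, Mrc1 and Stab1 were detected in over 50% of the cells, Gas6 in 49.7%, Pf4 in 43.8%, Igf1 in 26.1% and the other 7 in under 10%. Apoe, a lipid carrier, was detected in 75.8% of the macrophages against 9.4% of the other immune barcodes, Mrc1, the mannose receptor CD206, in 60.1% against 3.6%, Stab1, a scavenger receptor, in 58.2% against 0.4%, and Axl, a receptor for dying cells, in 60.8% against 4.8%, while Mertk, another receptor for dying cells, was found in 7.8%. C3ar1, the receptor for the complement fragment C3a, was found in 56.2% against 1.0%, and the chemokine gene Pf4 in 0.2% of the other immune barcodes. Trem2, a lipid receptor, was detected in 44.4%. Lyve1 and Vsig4 had no UMI in any of the 153 cells, which allows a share of cells with a UMI of up to 1.96% and sets no limit on cells that express them below detection, and Folr2, Cd163 and Timd4 were found in 3.9%, 7.8% and 0.7%. Msr1, a scavenger receptor, was at 20.9%. The complement gene C3 itself was found in 3.9%, against 19.3% of the other immune barcodes.

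Most lymphocyte and neutrophil genes were rare or absent, and monocyte genes were mixed. Ly6c2 was detected in 1.3% of the macrophages against 40.4% of the other immune barcodes, Plac8 in 2.6% against 53.8%, and Vcan and Ace in none, but S100a4 was found in 24.8%, F13a1 in 18.3% and Ccr2 in 15.0%. Cd3e, Trac, Nkg7, S100a8 and S100a9 had no UMI. Dendritic cell genes were also rare, with Xcr1, Clec9a, Flt3 and Zbtb46 in 1 or 2 cells each and Itgax in 7, while Siglech was detected in 17 cells (11.1%) against 1.2% of the other immune barcodes. Of the B cell list, Cd79a, Ms4a1 and Pax5 also had no UMI, but Ighm, the immunoglobulin mu chain, was detected in 64.7% of the macrophages (99 cells, at most 6 UMIs each), against 39.0% of the other immune barcodes and 0.8% of all other barcodes. Thinned to 1000 UMIs, Ighm stood at 27.7%, 16% and 0.4%. Cd79b, which pairs with Cd79a in the B cell receptor, was detected in 19.0%. The source of the Ighm counts was not tested. Tubule transcripts were also detected. Slc34a1, a phosphate transporter of the proximal tubule, was found in 13.7% of the macrophages and 31.7% of all other barcodes. Kap, a proximal tubule gene regulated by androgen, was found in 52.3% of the macrophages, 54.8% of the other immune barcodes and 59.2% of all other barcodes.

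**Figure D2:**
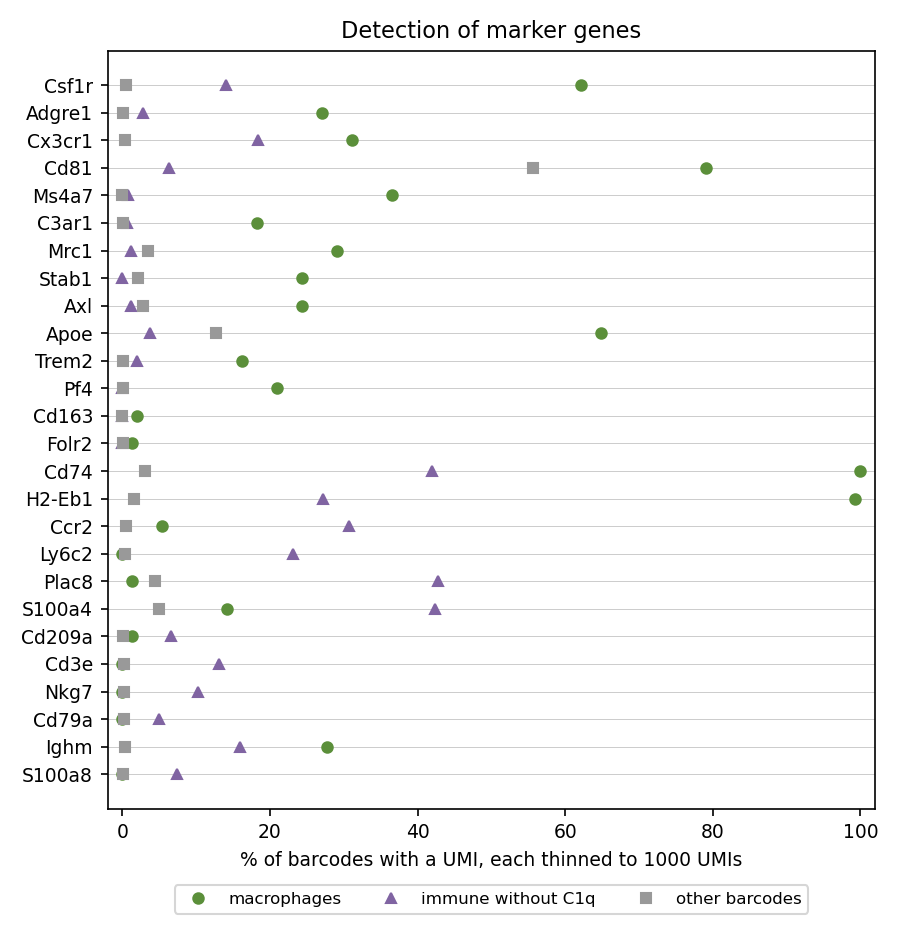
Share of barcodes with at least 1 UMI of each gene after thinning to 1000 UMIs (x axis, percent), for macrophages, immune barcodes without C1q and all other kept barcodes. MHC class II genes are at or near 100% in macrophages, and Ly6c2, Plac8 and the lymphocyte genes other than Ighm are at or near 0.

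Some genes outside the lists stood far above the other immune barcodes. They were picked after their values were seen, from genes of at least 150 CPM, and have no test. Cd72, an inhibitory lectin, stood at 1070 CPM in the pooled macrophages and 38.8 CPM in the other immune barcodes, Hpgd, which degrades prostaglandins, at 975 and 47.9, Hpgds, a prostaglandin D synthase, at 261 and 1.25, and Slamf9 at 362 and 25.4. Fxyd2, a subunit regulator of the sodium pump best known from tubules, stood at 2766 CPM in macrophages, 229 in the other immune barcodes and 2107 in all other barcodes.

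Within the macrophages, a few cells differed by Ccr2, Apoe and cell cycle genes. Ccr2, the receptor that draws monocytes into tissue, was detected in 23 of 153 cells (15.0%) from 9 libraries, with 4 of them at 1 UMI and 1 cell at 48. Cells with a Ccr2 UMI were deeper, with a median of 7107 UMIs against 3858.5 in the 130 cells without one. Apoe was undetected in 14 of the 23 cells with Ccr2 and in 23 of the 130 without it. In 7 of the 9 libraries that held both kinds, Apoe was lower in the cells with Ccr2, but 7 of the 9 held only 1 or 2 such cells. Macrophage identity genes were uneven between the 2 kinds. With and without Ccr2, Adgre1 stood at 346 and 353 CPM, Cd14 at 510 and 1691, Maf at 238 and 515, and Spi1 at 652 and 495. Itgax, which encodes CD11c, was detected in 6 of the 23 and 1 of the 130, and Lgals3 in 12 and 43. At least 2 of the 6 cycling genes Mki67, Top2a, Birc5, Cdk1, Ccnb1 and Ube2c were detected in 5 of the 153 cells, 2 from DN female 6 weeks replicate 2 and 1 each from control female 12 weeks replicate 1, control male 6 weeks replicate 1 and DN male 6 weeks replicate 1, and these cells held 36 to 123 C1q UMIs.

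The first comparison asked whether macrophages were more frequent in DN kidneys. Macrophages made up 0.402% ± 0.195 of kept barcodes in the 8 DN libraries and 0.208% ± 0.172 in the 8 control libraries (SD), 100 and 53 cells in all. Control libraries ran from 0% (control female 6 weeks replicate 2, 0 of 3292 barcodes, which allows a share of up to 0.0911%) through a median of 0.201% to 0.439%. DN libraries ran from 0.112% (DN female 12 weeks replicate 2) through a median of 0.407% to 0.732% (DN male 12 weeks replicate 1, 28 of 3828 barcodes, exact 95% interval 0.487% to 1.06%). The ranges overlapped widely. The difference of 0.194 percentage points did not pass an exact two-sided permutation test with labels permuted within sex and age (p = 0.0787, smallest possible 0.00154). In females the replicate number coincides with the technical set, and permuting within sex, age and set, added after the data were seen, gave an exact p of 0.0451 (smallest possible 0.00347). The exact sign-flip test over the 8 pairs of equal replicate number gave p = 0.0312, but it also pairs males, where nothing shows that the number pairs the mice. The call thus depends on whether the technical set or the replicate number enters the test. By stratum the DN mean was higher in all 4, by 0.338 points in females at 6 weeks, 0.0796 in females at 12 weeks, 0.0356 in males at 6 weeks and 0.323 in males at 12 weeks. All other barcodes had a median of 622 UMIs in control male 6 weeks replicate 2, against 3808.5 to 8188 in the other deep libraries. Counting only barcodes of at least 1000 UMIs, thinned to 1000, the difference was 0.22 points (exact permutation p = 0.0972). Males at 6 weeks then stood at 0.391% and 0.246% in control, and both DN values, 0.304% and 0.327%, lay between these. With a mitochondrial limit of 50% the difference was 0.119 points (exact permutation p = 0.0787). Single libraries decided the side of the threshold. The exact permutation p was 0.0386 without control female 12 weeks replicate 1, 0.0432 without control male 6 weeks replicate 1 and 0.0386 without DN female 12 weeks replicate 2. Within the 12 deep libraries the means were 0.367% in DN and 0.152% in control (exact permutation p = 0.125), and within the 4 shallow ones 0.504% and 0.375%, 2 libraries a genotype and no test.

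As a share of immune barcodes, macrophages made up 29.5% ± 16.1 in DN and 21.9% ± 16.7 in control libraries (SD, n = 8 each). The difference of 7.64 points was within the spread between libraries (exact two-sided permutation test, p = 0.323, and 0.174 within sex, age and set). By stratum it was 26.8 points in females at 6 weeks, which include the control library with 0 macrophages. It was 2.65 points in females at 12 weeks, -2.27 in males at 6 weeks and 3.42 in males at 12 weeks. This share differed more between the technical sets than between genotypes. Shallow libraries had means of 43.8% in control and 50.4% in DN, and deep ones 14.5% and 22.5%, and all male libraries, which are deep, lay between 12.1% and 25.9%. Thinned to 1000 UMIs, control female 6 weeks replicate 1 still stood at 54.5% and its deep partner, replicate 2, at 0 of 20 immune barcodes. Fewer cells of a type and less RNA per cell both lower the count of accepted barcodes, and the counts do not separate them.

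**Figure D3:**
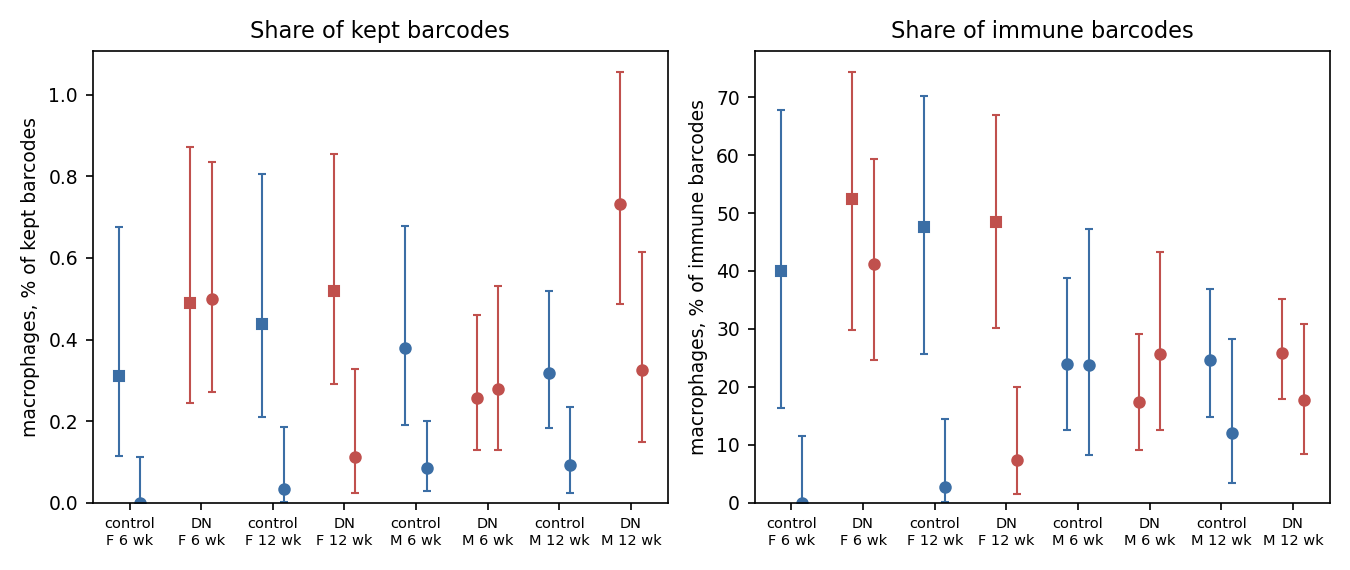
Macrophages as a percent of kept barcodes (left) and of immune barcodes (right) in each of the 16 libraries, by genotype, sex (F, M) and age in weeks (wk), with exact 95% binomial intervals that cover counting error only. Squares are the 4 shallow libraries and circles the 12 deep ones, and the genotypes overlap in both panels.

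Gene expression inside the macrophages was then set against genotype. UMIs were summed over the macrophages of a library, and the 8 libraries with at least 10 macrophages entered (3 control with 37 cells, 5 DN with 79). Their sums held 25730 to 73504 UMIs in control and 31392 to 168593 in DN. The 2 DN female 6-week libraries have no control counterpart at this minimum and add to the estimate of spread only, so the DN effect rests on 1 pair each of females at 12 weeks, males at 6 weeks and males at 12 weeks. Of 913 genes tested with edgeR's quasi-likelihood test, 1 passed an adjusted p of 0.05 (0.110%), and 18 had an unadjusted p below 0.05 (1.97%). Over all tested genes the median log2 fold change was 0.024 and 53% were above 0. Libraries of DN and control did not overlap for 13 genes higher (1.42%) and 9 genes lower (0.986%) in DN.

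The gene that passed was Kap, whose level fell by 3.36 on the log2 scale in DN (SE 0.49, adjusted p = 0.00127). Kap stood at 194, 1180 and 789 CPM in the macrophages of control female 12 weeks, male 6 weeks and male 12 weeks libraries. It stood at 0 and 34.3 CPM in the DN female 6-week libraries, 0 in DN female 12 weeks, 59.5 in DN male 6 weeks and 130 in DN male 12 weeks. All DN libraries of this fit thus lay below all its control libraries. Libraries with fewer macrophages did not keep to this order. Kap held 29 of 46161 macrophage UMIs in DN male 6 weeks replicate 2 and 33 of 94908 in DN male 12 weeks replicate 2. The fitted control female library held 5 of 25730, a lower share than both. The control male replicates 2 held 66 of 29700 (6 weeks) and 18 of 11371 (12 weeks). Control female 6 weeks replicate 1 and both female 12-week replicates 2 held 0. As given above, the share of cells with a Kap UMI was no higher in macrophages than in other barcodes, and the source of these counts was not tested. In all other barcodes of the same 8 libraries Kap stood at 1863 to 15317 CPM in control and 33.8 to 6268 CPM in DN, a log2 difference of -3.17 (SE 1.02, adjusted p = 0.828). In immune barcodes without C1q the difference was -1.90 (SE 0.64, edgeR adjusted p = 0.904), fitted over 15 libraries and not over these 8. The test of the difference between macrophages and all other barcodes gave -1.46 (SE 0.48, adjusted p = 0.398). It is a joint fit over both kinds of sums with library as a block, so its value is not the difference of the separate fits. Kap did not pass without control male 6 weeks replicate 1 (log2 -2.87, adjusted p = 0.551), without DN male 6 weeks replicate 1 (-2.83, adjusted p = 0.282) or with libraries of at least 5 macrophages (-2.17, adjusted p = 0.612), nor without the limit on lineage markers (-4.57, adjusted p = 0.998).

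**Figure D4:**
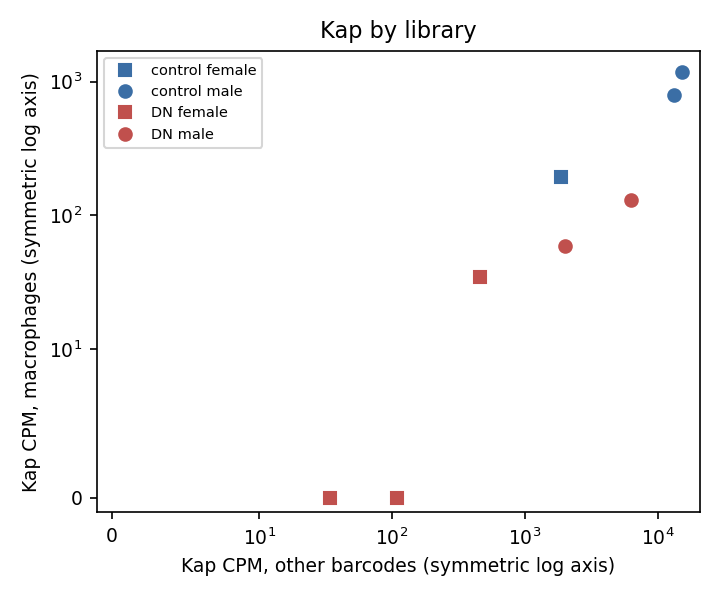
Kap in CPM in the macrophages (y axis) against all other kept barcodes (x axis) of the 8 libraries with at least 10 macrophages, both axes symmetric log with a linear part below 10, with squares for females and circles for males. Control libraries lie at 194 to 1180 CPM in macrophages and DN libraries at 0 to 130.

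The 9 genes next in order of p did not pass and are given as values. With a term for the technical set, which in these 8 libraries is the same fit as the replicate block, Spp1 and Pkm passed beside Kap (log2 1.80 and 1.34, adjusted p = 0.0202 for both). Each matched pair lies within 1 technical set, so this term cannot adjust the DN effect for the set. It separates the 2 DN female 6-week libraries only and so takes them out of the estimate of spread. Spp1, which encodes the secreted phosphoprotein osteopontin, stood at 311, 18.4 and 54.4 CPM in the control libraries and at 1179, 2171, 792, 238 and 172 CPM in DN female 6 weeks replicates 1 and 2, female 12 weeks, male 6 weeks and male 12 weeks. The control female library lay above both DN males, while within each matched pair the DN library was the higher one (log2 fold change 1.83, SE 0.51, edgeR adjusted p = 0.715). All other barcodes held 767 to 1924 CPM of Spp1 in control and 1445 to 2308 in DN, and the other immune barcodes 51.1 to 159 and 58.3 to 153. Single cells carried much of the Spp1 level in some libraries, with 142 of 190 UMIs of DN female 6 weeks replicate 2 and 23 of 37 of replicate 1 in 1 cell each. The control libraries of the matched pairs held only 8 (female 12 weeks), 1 (male 6 weeks) and 4 (male 12 weeks) Spp1 UMIs. Their DN counterparts held 26, 16 and 29, with at most 9, 10 and 8 in 1 cell. Without the limit on lineage markers the log2 fold change of Spp1 was 0.0089 (adjusted p = 1.00). Pkm, the glycolytic enzyme pyruvate kinase, stood at 194, 240 and 245 CPM in control and at 423 to 892 in DN libraries, which do not overlap in this fit (log2 1.36, SE 0.39, adjusted p = 0.715). Control female 6 weeks replicate 1, below the cell minimum, held 12 of 19086 UMIs of Pkm, a share inside the DN range. In the other libraries below the minimum Pkm was higher in DN than in control. In all other barcodes Pkm lay at 352 to 390 CPM in control and 335 to 459 in DN. Without either of the DN female 6-week libraries, Spp1 and Pkm passed, with adjusted p of 0.0193 for both without replicate 1, and of 0.0259 for Spp1 and 0.00983 for Pkm without replicate 2.

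Of the other 7, Taldo1, an enzyme of the pentose phosphate path, ran from 92.2 to 190 CPM in control and from 274 to 374 in DN. S100a4, a calcium-binding protein, ran from 0 to 147 in control and 172 to 366 in DN, and Lgals1, which encodes galectin-1, from 166 to 233 and 279 to 670. In this fit these 3 had no overlap between genotypes, log2 fold changes of 1.23, 1.96 and 0.99, and edgeR adjusted p of 0.999 each. Below the cell minimum, Lgals1 held 10 of 19086 UMIs in control female 6 weeks replicate 1, a share inside the DN range. Taldo1 held 5 of 11371 in control male 12 weeks replicate 2, a share above it. In all other barcodes Lgals1 had a log2 of 1.24 (SE 0.32, edgeR adjusted p = 0.645) and S100a4 of 0.65. In the other immune barcodes, fitted over 15 libraries, S100a4 had 0.82 (SE 0.27, edgeR adjusted p = 0.722). The macrophage value of S100a4 was 4.22 without control male 6 weeks replicate 1 and 4.23 without DN male 6 weeks replicate 1. Below control in DN were Mgl2, a lectin of macrophages and dendritic cells, at 590 to 777 CPM in control and 217 to 516 in DN, and Sdf2l1, a protein of the endoplasmic reticulum, at 311 to 424 and 89.2 to 274 (log2 -0.93 and -1.10, adjusted p = 0.999 each). Below the cell minimum, Mgl2 held 58 of 94908 UMIs in DN male 12 weeks replicate 2, a share inside the control range. It held 17 of 22317 in DN female 12 weeks replicate 2, also inside that range. In control female 6 weeks replicate 1 it held 8 of 19086, a share inside the DN range. Sdf2l1 held 1 of 11371 in control male 12 weeks replicate 2, a share below the DN range. Both genes had 0 UMIs in the 1 macrophage of control female 12 weeks replicate 2. Il1b, which encodes the inflammatory cytokine IL-1 beta, stood at 272, 369 and 286 CPM in control and at 31.9, 11.4, 152, 104 and 196 in DN, with no overlap in this fit (log2 -1.07, SE 0.46, adjusted p = 0.999). Control female 6 weeks replicate 1, below the cell minimum, held 1 of 19086 UMIs of Il1b, a share inside the DN range. Il10rb, a chain of the IL-10 receptor, overlapped between genotypes at 245 to 505 and 74.3 to 446 CPM (log2 -1.06, adjusted p = 0.999).

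**Figure D5:**
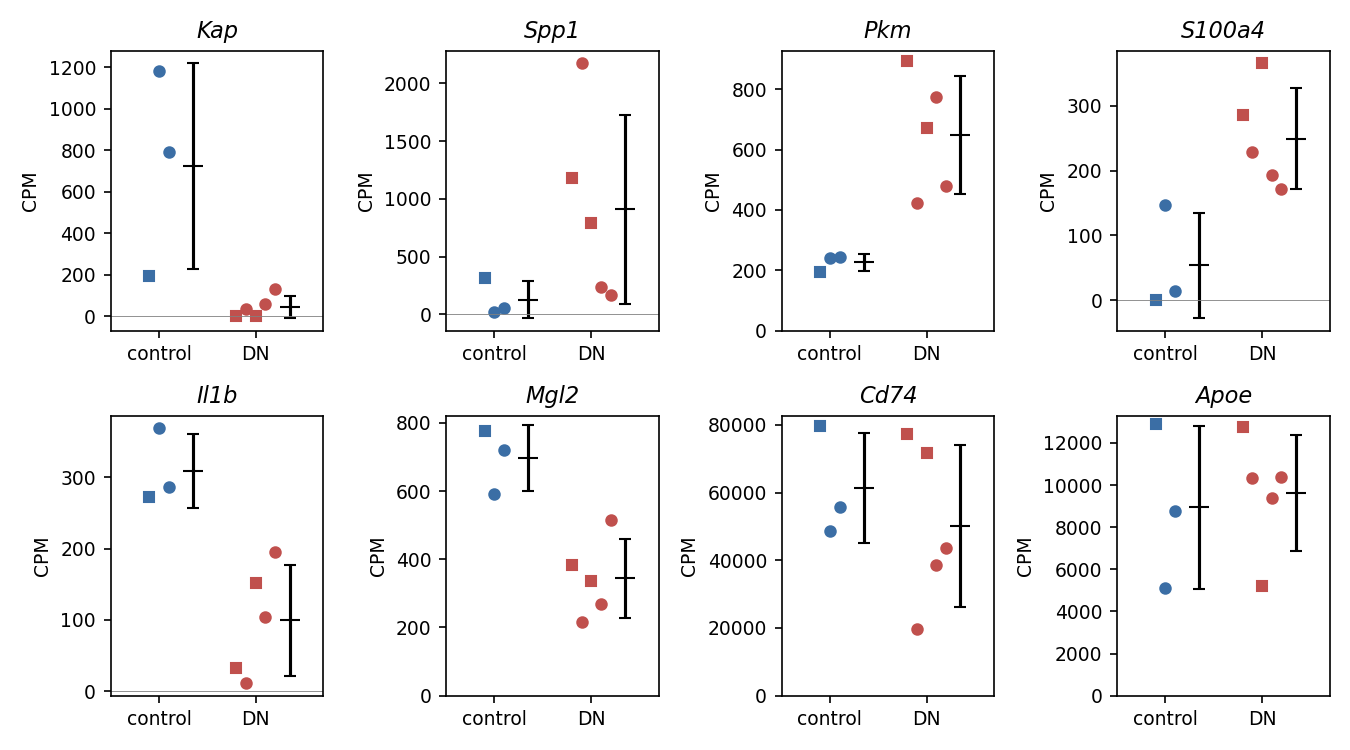
CPM of 8 genes in the macrophages of 3 control and 5 DN libraries, 1 point per library, with mean and SD as black bars. Squares are shallow libraries. Kap, Pkm, S100a4, Il1b and Mgl2 do not overlap between genotypes, while Spp1, Cd74 and Apoe do.

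By function, with the main test, no list had a member that passed except the proximal tubule list, through Kap. Of the MHC class II list, 7 of 8 genes were tested and all 7 had a negative DN value, with a median log2 of -0.41. Cd74 stood at 79712, 48779 and 55793 CPM in control and at 77153, 19804, 71611, 38506 and 43727 in DN, with overlap (log2 -0.33, SE 0.39), and H2-Eb1 had a log2 of -0.42 (SE 0.29). Summed over the list, DN female 6 weeks replicate 2 held the least, 49253 CPM. The list means in macrophages were 115500 CPM in control and 89290 in DN. The other immune barcodes were also lower in DN, with means of 39540 and 17930 CPM. They ran from 26730 to 54440 CPM in control and from 8715 to 34700 in DN, with overlap. The DN effect on Cd74 in macrophages exceeded that in all other barcodes by 0.06 (SE 0.25, adjusted p = 0.995). Of the list of cytokines and their regulators 3 genes were tested, the cytokine genes Il1b and Tgfb1 and Nfkbia, an inhibitor of NF-kB, and of the chemokines 5 (Ccl3, Ccl4, Ccl6, Ccl12, Cxcl16). All had negative fitted values, with medians of -0.86 and -0.27, against the median of 0.024 over all genes. The summed level of the 13 chemokines ran the other way, at 1438 to 2299 CPM in control (mean 1934) and 1398 to 3443 in DN (mean 2253), with overlap. Ccl4 stood at 155 CPM in control female 12 weeks and 1798 in its DN counterpart, and its fitted log2 was -0.01 (SE 0.92). Il6 and Il10 had no UMI in these libraries, and Tnf stood at 0 to 81.6 CPM in control and 0 to 127 in DN.

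Of 15 tested lysosome genes, 11 were above 0 and 4 below, with a median of 0.15. Of 17 tested macrophage identity genes, 7 were above 0 and 10 below, with a median of -0.03, and Cx3cr1 stood at 403 ± 143 CPM in control and 411 ± 121 in DN (SD, n = 3 and 5). Of 8 tested genes of the lipid-associated list, 4 were above 0 and 4 below, with a median of 0.03. Trem2 ran from 117 to 129 CPM in control and 134 to 319 in DN, without overlap in this fit (log2 0.60, SE 0.47). These control values rest on 3, 7 and 9 UMIs, and the lowest DN value on 9. Below the cell minimum, Trem2 held 3 of 19086 UMIs in control female 6 weeks replicate 1. It held 2 of 11371 in control male 12 weeks replicate 2, and both shares lie inside the DN range. Apoe stood at 8934 ± 3892 CPM in control and 9613 ± 2754 in DN. Of 5 tested resident macrophage genes, 3 were above 0 and 2 below, and Mrc1 stood at 286 ± 159 and 383 ± 285 CPM. Of 15 complement genes and receptors outside C1q, 4 were tested, 2 of them above 0, with a median of 0.01. The 4 tested scavenging genes were all above 0, with a median of 0.25, and so were 5 of 7 MHC class I genes (median 0.04) and 3 of 4 glucose and insulin genes (median 0.45), Pkm among them. Ccr2 varied between libraries of both genotypes, from 38.9 to 406 CPM in control and from 0 to 286 in DN. The interferon list had 4 tested genes, 1 above 0, and the dissociation stress list 10, with 3 above 0 and a median of -0.12. Cd163 stood at 0 to 27.2 CPM in control and 0 to 63.7 in DN.

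Summed transcripts of other cell types were high in single libraries, where 1 cell held most UMIs of the leading gene. The summed proximal tubule list, which includes Kap, stood at 1184 to 1751 CPM in the control macrophages and at 344 to 701 in 4 DN libraries. It stood at 6186 in DN female 12 weeks replicate 1, of which Gpx3 made up 3535, with 98 of its 116 UMIs in 1 cell. The collecting duct list stood at 36.9 to 213 CPM in 7 libraries and at 2021 in control female 12 weeks replicate 1, through Atp6v1g3, with 46 of its 47 UMIs in 1 cell. Both are shallow libraries, and they form the female 12-week pair. All 5 NK genes and 5 of 6 T cell genes had no UMI in these 8 libraries. The part of tubule transcripts in the other values was not tested.

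Whether DN macrophages differed from DN kidney cells in general was tested as the difference of both effects within libraries. None of 913 genes passed with edgeR's test (0%), and 50 had an unadjusted p below 0.05 (5.48%). Among the genes of lowest p, Pkm had a difference of 1.30 (SE 0.35, adjusted p = 0.181), beside 1.36 in macrophages and 0.18 in all other barcodes from the separate fits. Taldo1 had a difference of 1.35 (adjusted p = 0.284), and Apoe had -0.91, beside -0.09 in macrophages and 0.91 in all other barcodes. The count of genes passing rose to 8 without control male 12 weeks replicate 1 and to 3 without DN male 12 weeks replicate 1. It was 1 without control female 12 weeks replicate 1, control male 6 weeks replicate 1 or DN female 12 weeks replicate 1.

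Age and sex were compared in the same 8 libraries. Between 12 and 6 weeks none of 756 genes passed with edgeR (0%) or DESeq2, and 12 had an unadjusted p below 0.05 with edgeR (1.59%). The count was 15 (3 higher and 12 lower at 12 weeks) without the 4 shallow libraries and 2 without the filter on low counts. The smallest p belonged to Hmgb2, a chromatin protein abundant in dividing cells (log2 -2.01, SE 0.61, adjusted p = 0.997), followed by Cd72 (1.03) and the mitochondrial mt-Nd4l (-1.39), while Ccl4 had 1.14. The DN effect was not tested within each age, since the design asked for 3 libraries per genotype at each age and there were 1 control and 3 DN at 6 weeks and 2 of each at 12 weeks. Between males and females 2 of 756 genes passed (0.265%), and both were lower in males, while 118 had an unadjusted p below 0.05 (15.6%). Xist, the RNA that silences 1 X chromosome, had 0 UMIs in all 4 male libraries and 828 to 1646 CPM in the 4 female ones (adjusted p = 3.29e-04), in accord with the sex labels. Spp1 was lower in males by a log2 of -2.65 (SE 0.41, adjusted p = 0.0132), at 18.4 to 238 CPM in the 4 male and 311 to 2171 CPM in the 4 female libraries. Libraries with fewer macrophages, not in this fit, did not keep to these ranges. Spp1 stood at 1307 CPM in DN male 12 weeks replicate 2, with 107 of 124 UMIs in 1 cell, at 505 in control male 6 weeks replicate 2 and at 0 in control female 6 weeks replicate 1. Of these female libraries 3 are shallow and all males are deep, so sex and library depth cannot be told apart. The adjusted p for Spp1 was 0.0862 without control male 12 weeks replicate 1, 0.0801 without DN male 6 weeks replicate 1, 0.206 without DN female 12 weeks replicate 1 and 0.264 without DN male 12 weeks replicate 1. It did not pass with at least 5 cells per library (log2 -1.46, adjusted p = 0.328), at least 1 cell (-0.99, 0.476) or no limit on lineage markers (-2.56, 0.224), nor without high-UMI barcodes and those with lymphoid or neutrophil markers other than Ighm and Cd79b (-2.63, 0.0757). Without DN female 6 weeks replicate 2, the only deep female library, the count rose to 145 genes. It was 4 without control female 12 weeks replicate 1 or control male 6 weeks replicate 1, 6 without DN male 6 weeks replicate 1, and 1 without control male 12 weeks replicate 1, DN female 12 weeks replicate 1 or DN male 12 weeks replicate 1.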

How the data were processed

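Droplet-based 3 prime RNA libraries were made by the authors from 16 mice with 2 versions of a kit, and which library had which is not given in the sources used here. The authors deposited raw UMI counts per gene and barcode, made with Cell Ranger 3.0.2 on mm10. Macrophages were gated on these counts by the rule in the report, and no doublet caller was run beyond the limit on markers of other lineages. Members, gene lists and comparisons were chosen with earlier results of these data known. Counts were summed per mouse, since cells are not replicates (the study tested single cells), and libraries of at least 10 macrophages were tested with edgeR 4.0.16 in R 4.3.3 (quasi-likelihood test, TMM, filterByExpr, Benjamini-Hochberg adjustment over all genes tested). Terms were sex by age for genotype, genotype by sex for age, and genotype by age for sex. The genes of the rule were left out of the tests. The grouping given to filterByExpr was settled after a first look at the fits. Replicates are separate mice. The tests were also run on simulated data, with outcomes not given here. Shares used exact permutation within sex and age. Named genes were those passing and, where fewer than 10 passed, the 10 of smallest p, beside the leading members of each list. A few genes are not reported here. Intervals and limits cover counting error only. Alternatives were other size factors, filters, gates, cell minimums, DESeq2 1.42.0, thinning, leaving out libraries, a term for the technical set and a replicate block.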

Additional observations from a re-analysis of the deposited data

Results flagged for a closer look

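C3, the central complement component, stood at 83.0 CPM in the macrophages of DN male 12 weeks replicate 1 and at 0 in the other 4 DN libraries with at least 10 macrophages, which set this library apart from its group. It was detected in 2 of this library's 28 macrophages, with 13 of the 14 UMIs in 1 cell, so the value is that of 1 cell. In the 30 groups of values examined this was the only one set apart, and chance alone sets apart about 1 group in 20. C3 was detected in 3.9% of the macrophages.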

How the results depend on the processing

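The DN difference in the share of kept barcodes stayed positive in all alternatives, from 0.147 to 0.235 points with 1 library left out (p 0.0386 to 0.154), 0.119 with a mitochondrial limit of 50% and 0.247 without the lineage limit. With the replicate number as a block it was 0.194 points, higher in 7 of 8 pairs, and passed an exact sign-flip test (p = 0.0312, smallest possible 0.00781). In females the number coincides with the technical set, and in males nothing shows that it pairs the mice. Permuting within sex, age and set, added after seeing the data, also gave 0.194 points with a p under the threshold (exact p = 0.0451). The difference in the share of immune barcodes ran from 4.38 to 11.3 points and passed nowhere, block included (exact sign-flip p = 0.117).

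The count of genes passing between DN and control was 1. It was 0 with at least 5 cells or at least 1 cell per library, 4 without the shallow libraries, 3 with the replicate block and 3 with a term for the technical set (one and the same fit in these 8 libraries, calling Kap, Spp1 and Pkm), and 0 to 3 with 1 library left out. Added after seeing the data, the block with at least 5 cells gave 3, and leaving out high-UMI barcodes and those with lymphoid or neutrophil markers other than Ighm and Cd79b gave 2. Between ages the count of 0 became 2 without the filter on low counts, 15 without the shallow libraries, and stayed 0 with any 1 library left out. Between sexes the count of 2 became 47 without that filter, 15 with DESeq2, 54 with at least 5 cells, 9 without the lineage limit, 8 with at least 1 cell, 4 with a filter by the model design (both added), and 1 to 145 with 1 library left out. For macrophages against all other barcodes the count of 0 became 3 without the shallow libraries and 0 to 8 with 1 library left out. The causes were not tested. Genotype values of the 10 named genes kept their sign in the alternatives that were run, but that of Spp1 went from 1.83 to 0.0089 without the lineage limit. With 1 library left out S100a4 ran from 1.39 to 4.23, Il10rb from -1.79 to -0.55, Sdf2l1 from -1.44 to -0.58 and Il1b from -1.43 to -0.66, with the values nearest to 0 of the last 3 without DN male 6 weeks replicate 1. At least 20 cells per library, the sex comparison without the shallow libraries, and leaving out every barcode with a lymphoid or neutrophil marker could not be fitted. The last left 44 cells and no library with 10, since Ighm was detected in 99 cells. The comparisons within age were not run. The same-number correlation of deviations was defined for males at 6 weeks alone, with at least 5 cells (0.112 for both pairs, equal by construction). The tests rest on 8 libraries, 3 of them control.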
